A study of Caenorhabditis elegans with 15 samples.

Results

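The genes described here are the secreted immune effectors of *Caenorhabditis elegans* that carry the names lys, ilys, spp, abf, cnc, fip, fipr or thn followed by a number. They were chosen by symbol alone: the gene identifiers of the deposited table were matched to the WBcel235 annotation, release 115, and every protein-coding gene with such a name was taken, without regard to its values. This gave 105 genes of the 46926 in the table. They comprise 10 lysozymes of the lys family, 6 invertebrate-type lysozymes (ilys), 31 saposin-like proteins (spp), 6 antibacterial factor-related proteins (abf), 11 caenacins (cnc), 7 fungus-induced proteins (fip), 29 related proteins (fipr) and 5 thaumatin-like proteins (thn).

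Transcripts were measured by polyA RNA-seq of whole L4 larvae. By genotype, the labels give 3 libraries of mec-8 (e398) KO, 3 of u74 KO, 3 of u218 KO and 6 of wild-type N2, and every library is labelled as of strain N2. The groups are called e398, u74, u218 and N2 here; the labels name no gene for u74 and u218, and they do not say whether the libraries of a group came from separate cultures. MEC-8 is an RNA-binding protein that regulates alternative splicing, and the table gives sums per gene that do not separate splice forms. Transcripts of mec-8 itself were listed at 1069.6, 2239 and 3619.8 normalized counts in e398, u74 and u218, against 1956 in N2.

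The nematode has no circulating immune cells, and its defence against ingested or attached microbes relies on proteins secreted by the intestine, the pharynx and the epidermis. Lysozymes cleave the peptidoglycan of bacterial walls, and saposin-like proteins include the caenopores, small pore-forming proteins that permeabilize bacterial membranes in the gut. The abf genes encode defensin-like peptides. Caenacins, together with some nlp peptides, are glycine- and aromatic-rich antimicrobial peptides of the epidermis, and fip and fipr genes are named for induction by fungal infection or for resemblance to such genes. Thaumatin-like proteins resemble a family of plant antifungal proteins.

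The table holds 1 averaged normalized count per gene and genotype, so the averages carry no replicate error and their ratios were not tested; "higher" and "lower" below mean at least 2-fold, on averages with 1 normalized count added, unless a value is given. Column totals were 126747904, 63068771 and 68830842 normalized counts in e398, u74 and u218, against 97187743 in N2. Reads per library could be recovered for low values from the repeated steps of the averages, below 1000 normalized counts in e398, 400 in u74 and u218, and 10 in N2. The recovered libraries are numbered by falling size factor and carry no replicate number of the labels. Library size factors spanned 0.476 to 0.685 (e398), 1.46 to 1.95 (u74) and 0.831 to 1.99 (u218), and the 6 N2 libraries fell into a set of 3 at 1.59 to 1.82 and a set of 3 at 0.471 to 0.531. The e398 libraries thus lay near the lower N2 set, and the u74 libraries and u218 libraries 1 and 2 near the upper one. Between e398 and these libraries, genotype and whatever goes with size factor cannot be told apart. The N2 averages mix both sets. A pair of mutant libraries stood apart: e398 library 2 lay at least 4-fold above both other e398 libraries for 3.73% of 8918 genes and below both for 9.89%, and u218 library 3 above both for 17.8% and below both for 12.3% of 5567 genes. "Rose" and "fell" mark a limma call on the recovered libraries, at a Benjamini-Hochberg adjusted p under 0.05. These are bulk samples, in which fewer cells of a type and less RNA per cell cannot be told apart.

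Of the 105 genes, 5 were listed at 0 in all columns, 21 were above 0 but under 20 normalized counts in all of them, and 79 reached 20 in at least 1 column. Together they took 0.457%, 0.240% and 0.373% of the column total in e398, u74 and u218, against 0.448% in N2. Among the 79 genes, the highest column was e398 for 32, u74 for 7, u218 for 14 and N2 for 26. For e398 this is 40.5% of these effectors, near the 39.8% of all 17771 genes at 20 or more in some column. For u74 the share was 8.86% of effectors beside 25.4% of all genes, for u218 17.7% beside 26.8%, and for N2 32.9% beside 7.98%. A gene that reached 20 in 1 column alone was bound to be highest there, in N2 as in the mutants.

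In e398, 17 of 79 effectors were at least 2-fold higher than in N2 and 26 lower, with a median log2 ratio of -0.19. Over all genes considered 11.4% were higher and 19.9% lower, with a median of -0.05. In u74, 7 of 73 effectors were higher and 40 lower (median -1.24), where 6.47% of all genes were higher and 29% lower (median -0.07). In u218, 10 of 73 were higher and 44 lower (median -1.36), where 10.4% of all genes were higher and 35.8% lower (median -0.26). The share of effectors at least 2-fold lower was thus 32.9% (e398), 54.8% (u74) and 60.3% (u218). The same N2 column serves all 3 comparisons. A gene under the minimum in a mutant and past it in N2 could not come out higher, among effectors and all genes alike. The shares of all genes given here also stand beside the counts for families and gene lists below.

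**Figure D1:**
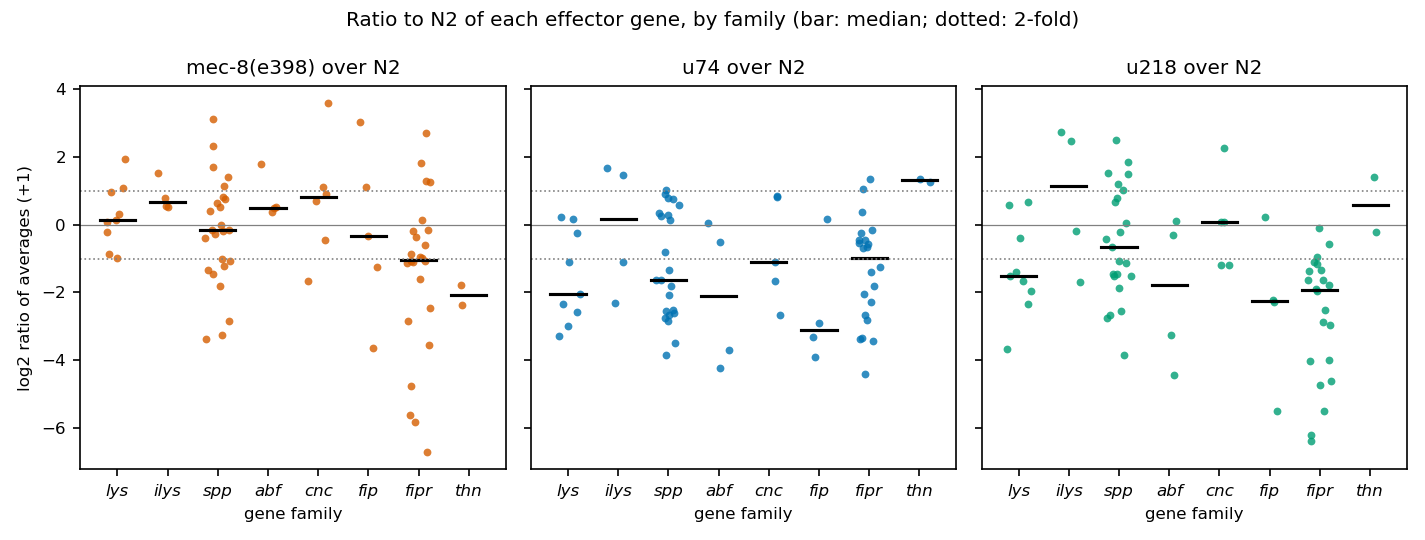
Ratio of each effector gene to N2 by gene family, in e398, u74 and u218. The vertical axis is the log2 ratio of averages plus 1, each point is a gene with at least 20 normalized counts in either column, bars are family medians and dotted lines mark 2-fold; the lys medians are 0.13 in e398, -2.03 in u74 and -1.51 in u218.

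Between mutants, 17 effectors were higher and 37 lower in u74 than in e398, of 71 (median log2 ratio -1.19), where 27.8% of all genes were higher and 37.2% lower. Against e398, 15 were higher and 34 lower in u218, of 69 (median -0.88), beside 26.9% and 40.7% of all genes. Against u74, 16 were higher and 7 lower in u218, of 63 (median 0.46), beside 18.7% and 20.6% of all genes. Of these 23 genes 69.6% were higher as deposited, and of those past 2-fold 59.1% were higher (13 higher, 9 lower) both after recentring on the median of all genes and with TMM factors, a scaling that trims extreme genes. No family median named below changed sign under either scaling, which moved the u218 ratios to N2 by 0.26 and 0.31.

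The lysozymes were among the most abundant effectors, and most members of the lys family were lower in u74 and u218 but not in e398. Among 9 lys genes considered, u74 had 6 lower and 0 higher (median log2 ratio -2.03). Likewise u218 had 6 lower and 0 higher (median -1.51), whereas e398 had 0 lower and 2 higher (median 0.13). Over all genes 29%, 35.8% and 19.9% were lower in u74, u218 and e398, and 6.47%, 10.4% and 11.4% higher. The most abundant, lys-4 (WBGene00003093; chromosome IV, 11621429 to 11623174, minus strand), averaged 151545, 15143 and 23731 normalized counts in e398, u74 and u218, against 120370.4 in N2. These are 192316, 19217 and 30115 normalized counts per kb of exon in e398, u74 and u218, against 152754 in N2. Its level in u74 was 7.95-fold and in u218 5.07-fold below that of N2.

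The second most abundant lys gene, lys-2, averaged 52640.4, 2755 and 10233 normalized counts in e398, u74 and u218, against 26782 in N2. It was 9.72-fold lower in u74 and 2.62-fold lower in u218, and 1.97-fold above N2 in e398. Its neighbour lys-3 averaged 1068, 53.4 and 86.4 normalized counts in e398, u74 and u218, against 277 in N2, at least 2-fold higher in e398. The other lys gene past 2-fold there, lys-10, rests on e398 library 1: it was 2.11-fold above N2 in e398 with all libraries and 1.49-fold below N2 without library 1. In u74, lys-10 was 2.15-fold below N2, and 1.94-fold without u74 library 1. Its u74 log2 ratio of -1.10 was -0.92 with TMM factors, short of 2-fold. In the recovered libraries lys-3 stood at 58.0, 38.5 and 63.8 in u74 and at 70.4, 50.2 and 138 in u218, so that every library of both groups lay below the N2 average. By contrast lys-1, lys-7 and lys-8, chosen after their values were seen, were within 2-fold of N2 in all 3 mutants as deposited. For lys-1 the averages were 14037, 13919.7 and 24514, against 16326 in N2; exons of lys-8 overlap a gene on the opposite strand.

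Among invertebrate-type lysozymes the abundant and the sparse genes differed in direction. The gene ilys-5 (WBGene00017691; chromosome X, 6533490 to 6536840, minus strand) averaged 185811, 25691 and 39705 normalized counts in e398, u74 and u218, against 127320.0 in N2, and was 4.96-fold lower in u74 and 3.21-fold lower in u218. The less abundant ilys-4 averaged 1104, 353 and 674 normalized counts in e398, u74 and u218, against 763 in N2; its 2-fold difference in u74 (log2 ratio -1.11) was -0.93 with TMM factors. On chromosome IV, ilys-3, a lysozyme of the pharynx and intestine that acts on ingested bacteria, and its neighbour ilys-2 were higher in u74 and u218. For ilys-3 the averages were 85.6, 158 and 331, against 49.1 in N2, and for ilys-2 they were 53.8, 52.0 and 106, against 18.1.

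ilys-2 was the only effector at least 2-fold higher in all 3 mutants (log2 ratios 1.52, 1.47 and 2.48), as were 28 of the 16782 genes considered in every comparison. Its libraries were uneven, at 92.0, 14.8 and 54.7 in e398, 42.1, 32.2 and 81.6 in u74 and 221, 39.6 and 56.6 in u218. The e398 library at 14.8 lay below the N2 average of 18.1. Its ratio to N2 was 1.87-fold in e398 without library 1 and 1.997-fold in u74 without library 3, both short of 2-fold, and in u218 it was 5.59-fold with all libraries and 2.57-fold without library 1. Likewise ilys-3 stood at 73.0, 139.6 and 44.2 in e398, 158, 94.8 and 223 in u74 and 602, 168 and 224 in u218, with u218 library 1 well above the others; its u218 log2 ratio to N2 was 2.73 with all libraries and 1.98 without library 1. Neither gene passed limma between mutants with all libraries. Without e398 library 2, ilys-3 rose in both u74 (log2 ratio 1.38 ± 0.42 SE, limma adjusted p = 0.0212) and u218 (2.30 ± 0.65 SE, limma adjusted p = 0.0351) relative to e398.

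**Figure D2:**
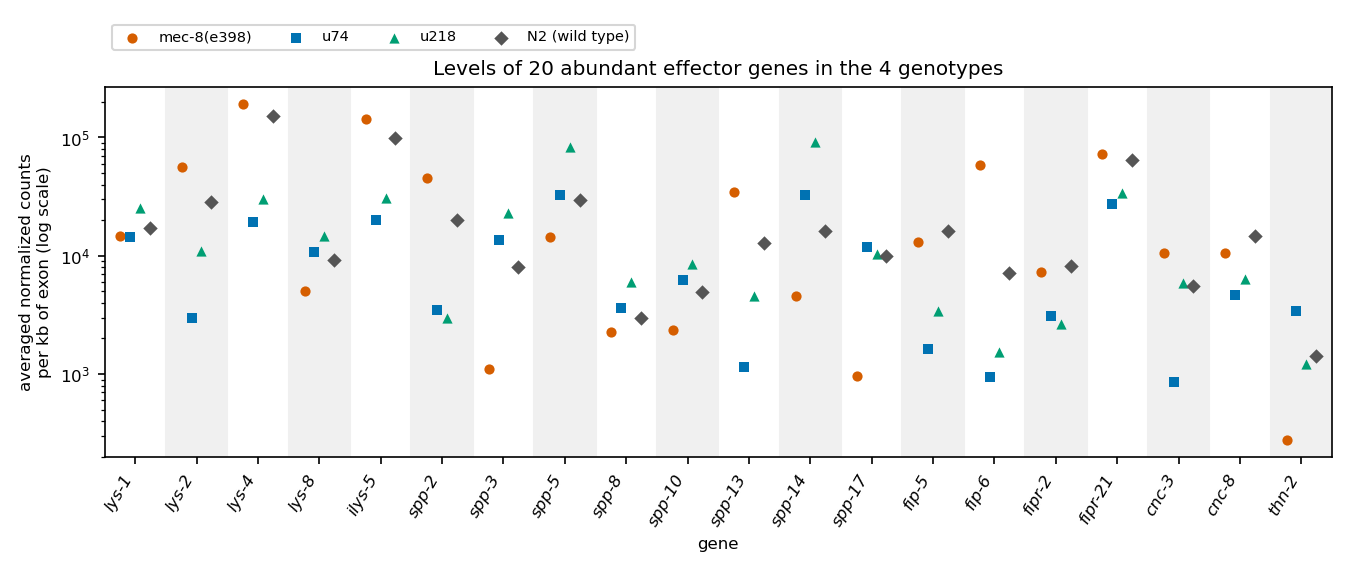
Levels of 20 abundant effector genes in e398, u74, u218 and N2. The vertical axis is the averaged normalized count per kb of exon on a log scale and each symbol is the deposited average of 1 genotype, without error; lys-4 and ilys-5 are higher in e398 and N2 than in u74 and u218, while spp-5 and spp-14 are highest in u218.

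The saposin-like family was divided. Of 25 spp genes considered in e398, 5 were higher and 9 lower (median log2 ratio -0.17), beside 11.4% and 19.9% of all genes. Of 23 in u74, 1 was higher and 13 lower (median -1.62), beside 6.47% and 29%. Of 23 in u218, 6 were higher and 11 lower (median -0.66), beside 10.4% and 35.8%. A group with low e398 and high u218 levels included spp-5, which encodes a caenopore that kills bacteria by forming pores and is needed for killing them in the gut. It averaged 5357, 11992 and 30637 normalized counts in e398, u74 and u218, against 10866 in N2, with log2 ratios of -1.02, 0.14 and 1.495; the e398 ratio was -0.97 after recentring.

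The same order of genotypes, e398 lowest and u218 highest, held for spp-14, spp-3 and spp-23. spp-14 (WBGene00004999; chromosome X, 7725979 to 7726383, plus strand) averaged 1625, 11702 and 32563 normalized counts in e398, u74 and u218, against 5718 in N2, and was the most abundant spp gene per kb of exon in u218 at 91468. spp-3 averaged 382, 4647 and 7833 normalized counts in e398, u74 and u218, against 2732 in N2, and its recovered e398 libraries stood close together at 389.9, 322 and 433. spp-23 averaged 92.3, 1349 and 3204 normalized counts in e398, u74 and u218, against 891 in N2, with e398 libraries at 58.4, 189 and 29.4, all below the lowest average of any other genotype; its e398 log2 ratio to N2 was -3.26 with all libraries and -4.31 without library 2. Among effectors at 50 or more normalized counts in either group, these 3 genes had the largest ratios of u218 to e398, being 20.02-fold, 20.5-fold and 34.4-fold higher in u218.

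In spp-17, a neighbour of spp-23, the e398 average was low while u74 and u218 were near N2. It averaged 349, 4363 and 3808 normalized counts in e398, u74 and u218, against 3657 in N2, a log2 ratio of -3.39 in e398, and the e398 libraries stood at 253, 393 and 402. spp-22 and spp-31 also had their lowest level in e398. The u74 libraries of spp-22 held 363, 327 and 324 normalized counts and the 3 e398 libraries 80.3, 49.3 and 79.9, so the groups did not overlap and spp-22 rose in u74 relative to e398 (log2 ratio 2.29 ± 0.32 (SE), limma adjusted p = 0.00115). For spp-31 the u218 libraries held 421, 386 and 313 and the e398 libraries 99.3, 78.9 and 122, and it rose in u218 (log2 ratio 1.90 ± 0.36 (SE), limma adjusted p = 0.00913).

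spp-13 and spp-11 ran the other way, highest in e398 and lowest in u74. The more abundant of them, spp-13, averaged 23162, 774 and 3062 normalized counts in e398, u74 and u218, against 8714 in N2. It was 11.2-fold lower in u74 than in N2 and 3.95-fold higher in u218 than in u74. spp-11 stood at 10.8, 6.95 and 3.43 in the u74 libraries and 34.2, 23.4 and 2.41 in the u218 libraries, against 359, 126 and 374 in e398, with no overlap, and fell in both u74 (log2 ratio -5.11 ± 0.59 (SE), limma adjusted p = 0.000604) and u218 (log2 ratio -4.17 ± 0.99 (SE), limma adjusted p = 0.0165). The lowest u218 value is that of library 3, which stood apart, and without it the u218 ratio was -3.14 ± 0.60 (SE; limma adjusted p = 0.0083).

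spp-19, whose exons overlap twk-10 on the opposite strand, so that their reads cannot be separated where strand is unknown, averaged 334, 27.3 and 63.2 normalized counts in e398, u74 and u218, against 404 in N2. Libraries held 25.7, 31.6 and 24.7 in u74, 39.7, 54.6 and 95.1 in u218 and 327, 455 and 221 in e398, and it fell in u74 (log2 ratio -3.51 ± 0.38 (SE), limma adjusted p = 0.000501) and in u218 (limma adjusted p = 0.0116) relative to e398. spp-12, a caenopore gene of pharyngeal neurons, was lower than N2 in all 3 mutants, averaging 17.7, 11.2 and 2.53 normalized counts in e398, u74 and u218, against 50.02 in N2. The u218 libraries at 3.52, 1.67 and 2.41 lay below the u74 libraries at 10.8, 14.5 and 8.23, and spp-12 fell in u218 relative to u74 (limma adjusted p = 0.0395). That call was lost without any 1 u74 library, without u218 library 1 or 2 and by voom (adjusted p up to 0.144).

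Among the abf genes, abf-5 was the most abundant and was low in u74 and u218. It averaged 1936, 104 and 139.9 normalized counts in e398, u74 and u218, against 1348 in N2, with u74 libraries at 85.2, 96.0 and 129.6 and u218 libraries at 197, 192 and 30.1. The low u218 value is library 3, and the neighbouring abf-6 averaged 671, 359 and 418 normalized counts in e398, u74 and u218, against 513 in N2, within 2-fold of N2 in every mutant.

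abf-4 depended on 1 library. Its averages were 859, 12.1 and 10.4 normalized counts in e398, u74 and u218, against 248 in N2, but the e398 libraries held 61.3, 2431 and 84.1, and library 2 accounts for the high e398 average. With all libraries its e398 ratio to N2 was 1.79 on the log2 scale, and without library 2 it was -1.76. The u74 libraries held 6.67, 13.3 and 16.5 and the u218 libraries 10.1, 13.9 and 7.22, below every e398 library, and abf-4 fell in u74 (limma adjusted p = 0.0273) and u218 (limma adjusted p = 0.036). Without e398 library 2 it still fell in u74 (-2.55 ± 0.53 SE, limma adjusted p = 0.00393) and u218 (-2.72 ± 0.62 SE, limma adjusted p = 0.0196). The call was lost without any 1 u74 library in the first case, and without any 1 u218 library or e398 library 1 or 3 in the second, and by voom in both (adjusted p up to 0.0855). abf-6 was uneven in the same way, at 212, 1733 and 69.4 in e398; its e398 ratio to N2 was 0.39 with all libraries and -1.86 without library 2.

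Of the 11 caenacins, 6 were considered in e398, with 2 higher and 1 lower. In u74 0 of 5 were higher and 3 lower, and in u218 1 of 5 was higher and 2 lower. Over all genes 11.4%, 6.47% and 10.4% were higher in e398, u74 and u218, and 19.9%, 29% and 35.8% lower. The caenacins are too few to be set apart from these shares. cnc-3 was low in u74 alone, averaging 4649.9, 382 and 2614 normalized counts in e398, u74 and u218, against 2452 in N2, with u74 libraries at 510.2, 351 and 285; it was 6.83-fold higher in u218 than in u74. cnc-8 averaged 3333, 1464 and 2014 normalized counts in e398, u74 and u218, against 4591 in N2. It was lower than N2 in u74 (log2 ratio -1.65). Its 2-fold difference in u218 (log2 ratio -1.19) was smaller, and was -0.92 after recentring and -0.88 with TMM factors.

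cnc-2, a caenacin induced in the epidermis by fungal infection through the TGF-beta ligand DBL-1, averaged 191, 41.0 and 38.2 normalized counts in e398, u74 and u218, against 88.2 in N2. Libraries held 34.9, 13.9 and 74.1 in u74, 39.7, 43.5 and 31.3 in u218 and 340.3, 93.6 and 139 in e398, without overlap. It fell in u74 (log2 ratio -2.27 ± 0.71 (SE), limma adjusted p = 0.0285) and u218 (limma adjusted p = 0.0298) relative to e398. Both calls were lost without e398 library 1 or 3, and without library 1 or 2 of u74 or of u218 (adjusted p up to 0.0998 in u74 and 0.0904 in u218). Against N2, the ratios of cnc-2 in u74 (-1.09) and u218 (-1.19) fell short of 2-fold with TMM factors, at -0.90 and -0.88. The u74 ratio also fell short without u74 library 1 (-0.99) or 2 (-0.69, -1.81 without library 3), and the e398 ratio of 1.11 was 0.39 without e398 library 1.

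cnc-9 and cnc-10 had opposite orders. cnc-9 averaged 221, 4.18 and 13.1 normalized counts in e398, u74 and u218, against 17.4 in N2, with the highest e398 ratio to N2 of any effector at 50 or more normalized counts (12.0-fold). Its libraries held 4.62, 3.79 and 4.12 in u74, 23.6, 7.25 and 8.43 in u218 and 273, 23.0 and 366 in e398; the e398 library at 23.0 is library 2, and it lies below the highest u218 library. cnc-9 fell in u74 (log2 ratio -4.70 ± 0.99 (SE), limma adjusted p = 0.00574) and in u218 (limma adjusted p = 0.0423). The u218 call was lost by voom and without any 1 u218 library or e398 library 1 or 3 (adjusted p up to 0.142), and without e398 library 2 the u218 ratio was -4.67 ± 0.69 (SE; limma adjusted p = 0.00724). cnc-10 averaged 62.6, 352 and 956 normalized counts in e398, u74 and u218, against 199 in N2; the u74 libraries at 329.5, 355 and 372 lay well above the e398 libraries at 57.0, 73.9 and 56.8, and it rose in u74 (log2 ratio 2.48 ± 0.29 (SE), limma adjusted p = 0.000621).

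Among the fip genes, fip-6 was high in e398 and low in u74 and u218. fip-6 (WBGene00009964; chromosome I, 8945533 to 8946244, minus strand) averaged 24764, 403 and 649 normalized counts in e398, u74 and u218, against 3026 in N2, 8.18-fold above N2 in e398 and 7.49-fold and 4.66-fold below N2 in u74 and u218. It was 61.3-fold lower in u74 than in e398; no library values could be recovered at this abundance. fip-5 averaged 3903, 488 and 1012 normalized counts in e398, u74 and u218, against 4889 in N2, and was low in u74 and u218 only. fip-3 was sparse, with 0, 0.632 and 2.06 normalized counts in the u74 libraries, 0, 0.557 and 1.20 in the u218 libraries and 14.6, 19.7 and 35.7 in the e398 libraries. It fell in both u74 (limma adjusted p = 0.00248) and u218 (limma adjusted p = 0.00668), and its u218 level rests on 2 reads.

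The fipr genes were mostly low in u218. Of 24 considered in e398, 4 were higher and 12 lower (median log2 ratio -1.03), beside 11.4% and 19.9% of all genes. Of 22 in u74, 2 were higher and 11 lower (median -0.97), beside 6.47% and 29%. Of 22 in u218, 0 were higher and 19 lower (median -1.93), beside 10.4% and 35.8%. Many of the lower genes passed the minimum through N2 alone and could not have come out higher. In e398 and u218 these were fipr-13, fipr-17 to fipr-20 and fipr-27 to fipr-29, and in u74 fipr-17 to fipr-20, fipr-24, fipr-27 and fipr-28. In e398, fipr-23 and fipr-26 passed through e398 alone and could not have come out lower. The most abundant, fipr-21 (WBGene00009621; chromosome X, 10304529 to 10304867, plus strand), averaged 24372, 9359 and 11468 normalized counts in e398, u74 and u218, against 22073 in N2. fipr-2 averaged 3446, 1459 and 1239.9 normalized counts in e398, u74 and u218, against 3860.3 in N2. Both were within 2-fold of N2 in e398 and at least 2-fold lower in u74 (log2 ratios -1.24 and -1.40).

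The e398 averages of a further set of fipr genes hide a large gap between libraries. Of 14 fipr genes with recovered e398 libraries and an e398 average of at least 20 normalized counts, library 2 lay at least 4-fold above both others in 12, and of 25 other effectors in 2, abf-4 and abf-6.

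In 10 of these genes, fipr-1 and fipr-3 to fipr-11, singled out after their values were seen, library 2 held 373 to 2057 normalized counts and libraries 1 and 3 held 2.10 to 58.9. With 1 normalized count added, library 2 was 23.8-fold to 60.6-fold above the higher of the others, and the N2 averages of these genes were 404 to 921. The most abundant of them in N2, fipr-5, stood at 48.2, 2057 and 58.9 in e398, 150.4, 179 and 237 in u74 and 122, 163 and 90.3 in u218. Its e398 ratio to N2 was -0.35 with all libraries and -4.08 without library 2, and for fipr-4 these values were -0.94 and -5.99. The u74 and u218 libraries showed no such split: over fipr-3 to fipr-11 the library medians were 129, 165 and 260 in u218, and over the 5 of these genes recovered in u74 they were 229, 358 and 427. These genes are short and alike, and how reads matching several of them were counted is not given in the sources used here, so their separate levels are uncertain.

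**Figure D3:**
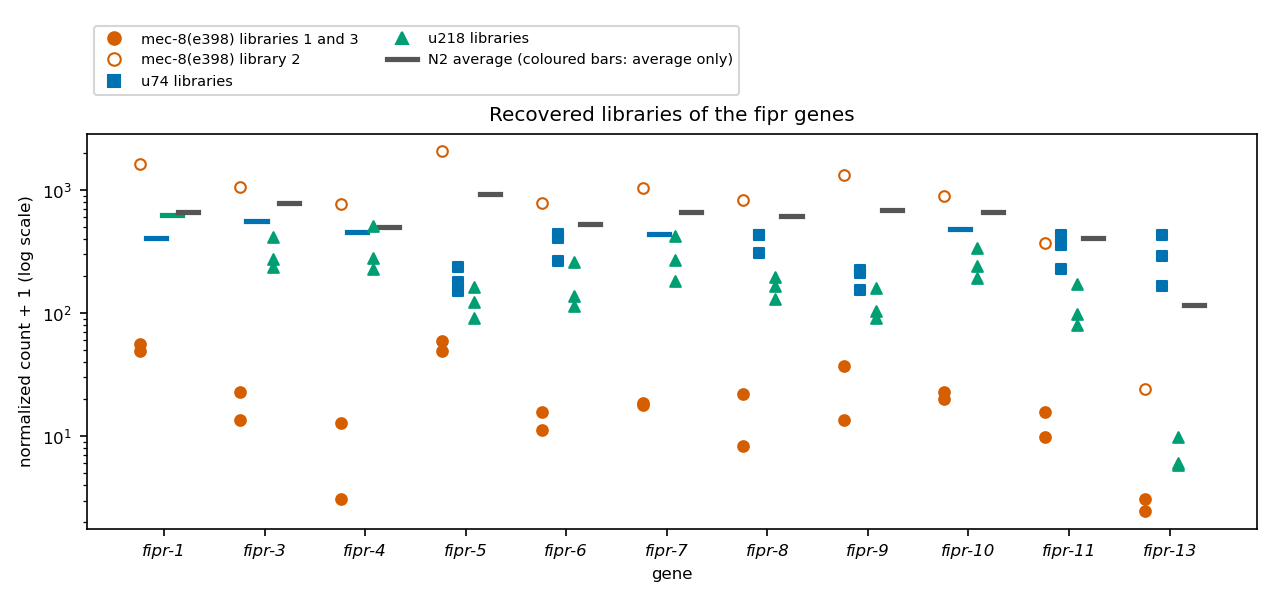
Recovered libraries of 11 fipr genes. The vertical axis is the normalized count plus 1 on a log scale, symbols are single libraries, and bars are averages where libraries could not be recovered; e398 library 2 (open circles) lies above e398 libraries 1 and 3 in every gene, by at least 23.8-fold in fipr-1 and fipr-3 to fipr-11.

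Over the 49 effectors whose e398 libraries were recovered and whose average reached 20 normalized counts in e398 or N2, 12 were higher and 23 lower than N2 with all e398 libraries. Without library 2, 11 were higher and 30 lower, 13 calls changed and 3 ratios changed sign. Without library 1 there were 9 higher and 21 lower, with 7 calls and 5 signs changed, and without library 3 13 higher and 18 lower, with 8 calls and 3 signs changed. In u74, 5 of 40 such genes were higher and 26 lower, and without library 3 1 was higher and 26 lower. In u218, 3 of 37 were higher and 29 lower with all libraries, and 3 higher and 27 lower without library 3, which stood apart.

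Within the same set, fipr-8 and fipr-11 passed limma between u218 and u74. fipr-8 held 129, 165 and 196 in the u218 libraries and 307, 429.6 and 433 in the u74 libraries, without overlap, and fell in u218 (log2 ratio -1.25 ± 0.25 (SE), limma adjusted p = 0.0141). fipr-11 held 79.0, 96.4 and 172 in u218 and 229, 358 and 427 in u74, and fell likewise (limma adjusted p = 0.0253). The fipr-8 call was lost without u74 library 2 or 3 (adjusted p up to 0.0733), and that of fipr-11 also without u218 library 1 or 2 (up to 0.1).

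fipr-13 was higher in u74 than in the other mutants. Its libraries held 5.03, 8.92 and 4.82 in u218, 166, 292 and 427 in u74 and 1.46, 23.0 and 2.10 in e398, against an N2 average of 115. Every u74 library lay above the N2 average and every e398 and u218 library below it; the u74 average was 2.55-fold that of N2, and 1.98-fold without u74 library 3. It rose in u74 relative to e398 (log2 ratio 5.602 ± 0.89 (SE), limma adjusted p = 0.0017) and fell in u218 relative to u74 (log2 ratio -5.29 ± 0.49 (SE), limma adjusted p = 0.00143). fipr-29, with an N2 average of 38.7, shared this order at lower counts: libraries held 1.51, 0 and 0 in u218 (3 reads in all), 39.5, 58.8 and 54.2 in u74 and 0, 11.5 and 2.10 in e398. It rose in u74 relative to e398 (limma adjusted p = 0.00808) and fell in u218 relative to u74 (limma adjusted p = 0.00201).

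On chromosome I, fipr-22 and fipr-24 were highest in e398. fipr-22 held 52.3, 17.3 and 19.3 in u218, 99.6, 19.6 and 285 in u74 and 207, 266 and 212 in e398. The u218 libraries lay below all e398 libraries, and it fell in u218 (log2 ratio -3.08 ± 0.58 (SE), limma adjusted p = 0.00891), while the u74 libraries ran from below to above the e398 range. fipr-24 held 8.73, 3.79 and 10.3 in u74, 23.1, 16.7 and 26.5 in u218 and 136, 434 and 82.0 in e398, and fell in u74 (limma adjusted p = 0.00163) and u218 (limma adjusted p = 0.019). fipr-26, next to fip-6, held 8.21, 4.42 and 17.8 in u74, 15.6, 4.46 and 1.20 in u218 and 32.1, 197 and 23.1 in e398. It fell in u74 (limma adjusted p = 0.0478) and u218 (limma adjusted p = 0.0469), but the u74 call did not hold without e398 library 1 or 2 or any 1 u74 library (adjusted p up to 0.144). The u218 call did not hold without any 1 library of either group or with a pseudocount of 0.5 (adjusted p up to 0.111).

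In all 3 mutants 8 effectors were at least 2-fold lower than N2, where 79, 73 and 73 were considered in e398, u74 and u218. So were 233 of the 16782 genes considered in every comparison. The 8 effectors were spp-12, fip-7, fipr-17, fipr-18, fipr-19, fipr-20, fipr-27 and fipr-28. The e398 call of spp-12 was lost without library 3 (1.93-fold lower, in place of 2.73-fold) and that of fipr-27 without library 2 (1.54-fold, in place of 2.20-fold). The other 6 stayed at least 2-fold lower in each mutant with any 1 library left out. The e398 ratio of fipr-20 was -3.97 on the log2 scale without library 1, in place of -2.45, and its u218 ratio was -3.68 without library 3, in place of -2.95. Without library 3, fip-7 had ratios of -4.70 in e398 and -5.16 in u74, in place of -3.65 and -3.91, and the few u218 reads of fipr-19 were all in library 3. All 8 had low N2 averages, between 44.0 for fip-7 and 103 for fipr-18. Each was under 20 normalized counts in every mutant, so these genes passed the minimum through N2 alone and could not have come out higher. fipr-18 and fipr-19, neighbours on chromosome III, were listed at 0 in e398, where 3 reads over the group would give 1.70 normalized counts; they were at least 60.9-fold and at least 28.1-fold lower than N2. In u218, fip-7, fipr-27 and fipr-28, neighbours on chromosome IV, were listed at 0, and with a floor of 0.650 normalized counts they were at least 67.6-fold, 68.0-fold and 127-fold lower. Family medians did not move when these genes were set to their bounds.

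The remaining values of these genes were low but not all at 0. fipr-17 averaged 1.19, 7.57 and 1.43 normalized counts in e398, u74 and u218, against 58.8 in N2, and fipr-20 averaged 10.2, 5.11 and 6.94 normalized counts in e398, u74 and u218, against 60.5 in N2. fipr-27 libraries held 13.3, 9.48 and 6.86 in u74 and 38.0, 1.64 and 18.9 in e398, against 0 in every u218 library, and fipr-27 fell in u218 relative to e398 (limma adjusted p = 0.0263). fipr-28 libraries held 0 in every u218 library, 5.65, 16.4 and 14.4 in u74 and 1.46, 0 and 0 in e398, a single read. It rose in u74 relative to e398 (limma adjusted p = 0.006) and fell in u218 relative to u74 (limma adjusted p = 0.00808). Their N2 libraries could not be recovered, so the spread in N2 is unknown.

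The thaumatin-like genes thn-1 and thn-2 were lower than N2 in e398. thn-2, the more abundant, averaged 209, 2599 and 929 normalized counts in e398, u74 and u218, against 1076 in N2, with e398 libraries at 266, 246 and 114. It was 12.4-fold higher in u74 than in e398. thn-1 held 87.3, 115 and 395 in the u74 libraries, 278, 138 and 206 in the u218 libraries and 13.1, 39.4 and 12.6 in the e398 libraries, with an N2 average of 77.3. Every e398 library lay below every library of the other mutants. Its u74 average was 2.555-fold that of N2 with all libraries and 1.30-fold without library 3. It rose in u74 (log2 ratio 3.01 ± 0.70 (SE), limma adjusted p = 0.00868) and u218 (log2 ratio 3.33 ± 0.64 (SE), limma adjusted p = 0.00929) relative to e398, also under every alternative run.

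Counted over all effectors that could enter limma, 6 of 36 rose and 8 fell in u74 relative to e398, where 13.5% of the 8121 genes tested rose and 38.8% fell. Without e398 library 2, 22 effectors were called in place of 14. Over all genes, 1486 rose and 3387 fell of 7691 without that library, in place of 1100 and 3148 of 8121. In u218 relative to e398, 2 of 39 rose and 11 fell, beside 10.1% and 35.2% of 8215 genes. The count of 13 became 22 without e398 library 2, 6 and 8 without e398 library 1 and 3, and 5 without u218 library 1 or 2. Among all genes, 895 rose and 2667 fell of 7862 without e398 library 2. Without e398 library 1 these were 453 and 1336 of 8090, and without e398 library 3 509 and 1537 of 8102. Without u218 library 1 they were 282 and 1464 of 8394, and without u218 library 2 242 and 1289 of 8411. Where the effector count fell to 5, 6 or 8, the calls over all genes thus fell too. In u218 relative to u74, 0 of 34 rose and 7 fell, beside 12% and 17.1% of 6807 genes (limma voom likewise called 0 and 7, and 10 had an unadjusted limma p under 0.05 in either direction). Over all genes, 820 rose and 1165 fell with all libraries, and 2259 and 1680 of 6723 without u218 library 3. These were 154 and 479 of 6840 without u74 library 2, and 202 and 543 of 6809 without u74 library 3. The effector count of 7 became 15 without u218 library 3 and 2 without u74 library 2 or 3. lys-10 was among those that fell in u218: libraries held 2.01, 2.23 and 0 in u218, 10.3, 13.9 and 15.8 in u74 and 152, 24.6 and 14.7 in e398 (limma adjusted p = 0.0225 against u74 and 0.017 against e398). The call against u74 was lost without any 1 u74 library or u218 library 1 or 2 (adjusted p up to 0.0856).

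The calls between mutants differed in how far they rested on single libraries. In u74 relative to e398, 11 of the 14 calls held under every alternative in which the gene could be tested. In u218 relative to e398, 4 of 13 did (lys-10, fipr-22, thn-1 and fip-3), and in u218 relative to u74, 3 of 7 (fipr-13, fipr-28 and fipr-29). Among the calls that held, fipr-28 could be tested in only 7 alternatives in each of its comparisons, and the others in 10. The u218 calls of spp-11 (without e398 library 1 or 3), spp-19 and spp-31 (without u218 library 1 or 2), fipr-24 (without u218 library 1 or 2 or e398 library 1) and fipr-27 (without u218 library 1 or 2 or e398 library 3) against e398 were lost with limma adjusted p up to 0.0661, 0.053, 0.0575, 0.0694 and 0.0796, in that order.

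Against N2 only genes with an N2 average under 10 could be tested, which leaves out nearly all effectors named here. In e398, 0 of 4 effectors were called by limma (1 at an unadjusted p under 0.05), where 2.36% of 1654 genes were; in u74, 0 of 2 (0 unadjusted), beside 3.24% of 1017; in u218, 0 of 4 (0 unadjusted), beside 3.09% of 1101. limma voom called 0 effectors in each. Over all genes and with all libraries, limma called 39, 33 and 34 in e398, u74 and u218, and all of them rose (0 fell). With N2 averages under 10 a fall could hardly be called, so these tests say nothing of the effectors that were lower. The ratios to N2 above are therefore descriptions of averages.

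**Figure D4:**
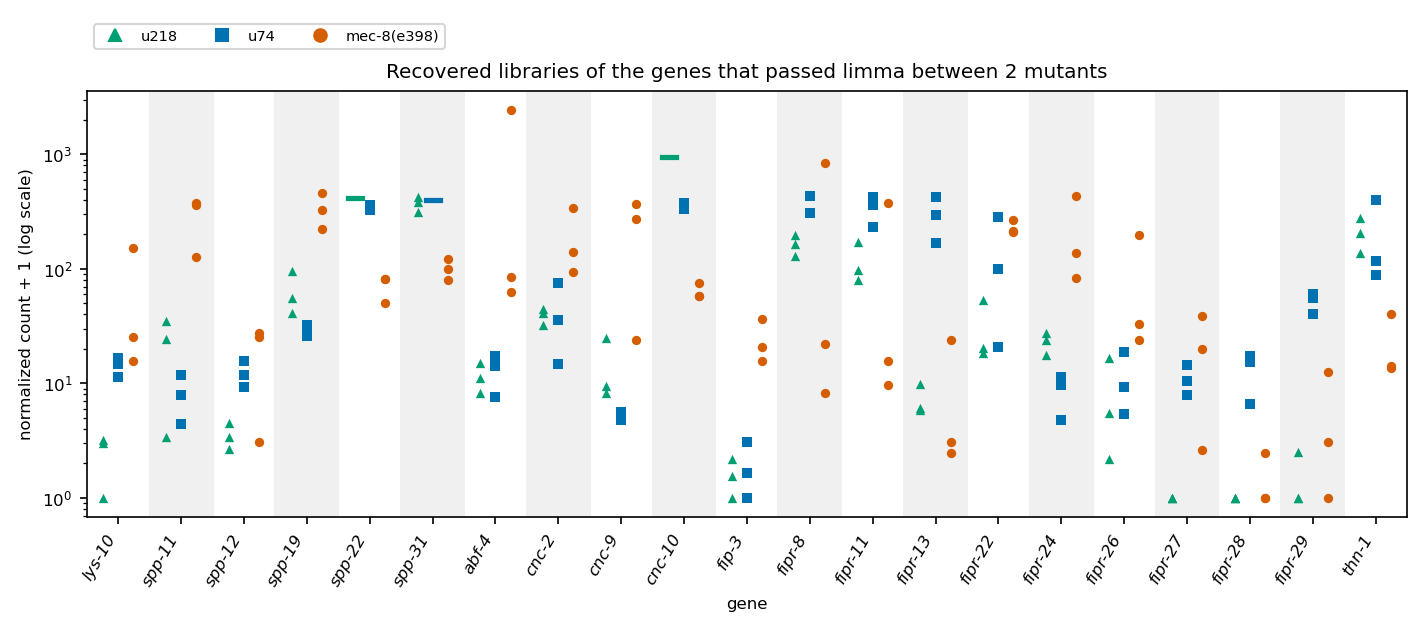
Recovered libraries of the effector genes that passed limma in at least 1 comparison between mutants, in u218, u74 and e398. The vertical axis is the normalized count plus 1 on a log scale, each symbol is 1 library and bars are averages where libraries could not be recovered; all 3 e398 libraries of thn-1 lie below all u74 and u218 libraries, and all 3 u74 libraries of fipr-13 lie above the others.

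Many effector genes lie side by side: 66 of the 105 fell into 23 groups with gaps of at most 10 kb between members, and 39 lay alone. Neighbours did not always share a direction. On chromosome X, spp-3, spp-2, spp-6, spp-4 and spp-5 lie within 5386 bp. In u218, spp-3 and spp-5 had log2 ratios to N2 of 1.52 and 1.495, while spp-2 and spp-4, chosen after their values were seen, had -2.75 and -1.47. In e398 the order was turned round, with -2.84 for spp-3 and 1.16 for spp-2, which averaged 22222, 1719.8 and 1479 normalized counts in e398, u74 and u218, against 9952 in N2.

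Among the lysozymes on chromosome V, lys-2 and lys-3 were lower in u74 and u218 while lys-1, in the same group of 5641 bp, was within 2-fold of N2. On chromosome IV, lys-4, lys-5 and lys-6 moved alike, with u74 ratios of -2.99, -2.58 and -2.03 and u218 ratios of -2.34, -1.96 and -1.51. In the caenacin group of chromosome V, cnc-3 had a u74 ratio of -2.68 and cnc-4 of 0.85; cnc-1 and cnc-5 were listed at 0 and cnc-11 was under 20 normalized counts throughout. fip-5, fipr-21 and cnc-8, 3 families within 4211 bp of chromosome X, were all lower in u74 (-3.32, -1.24 and -1.65).

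**Figure D5:**
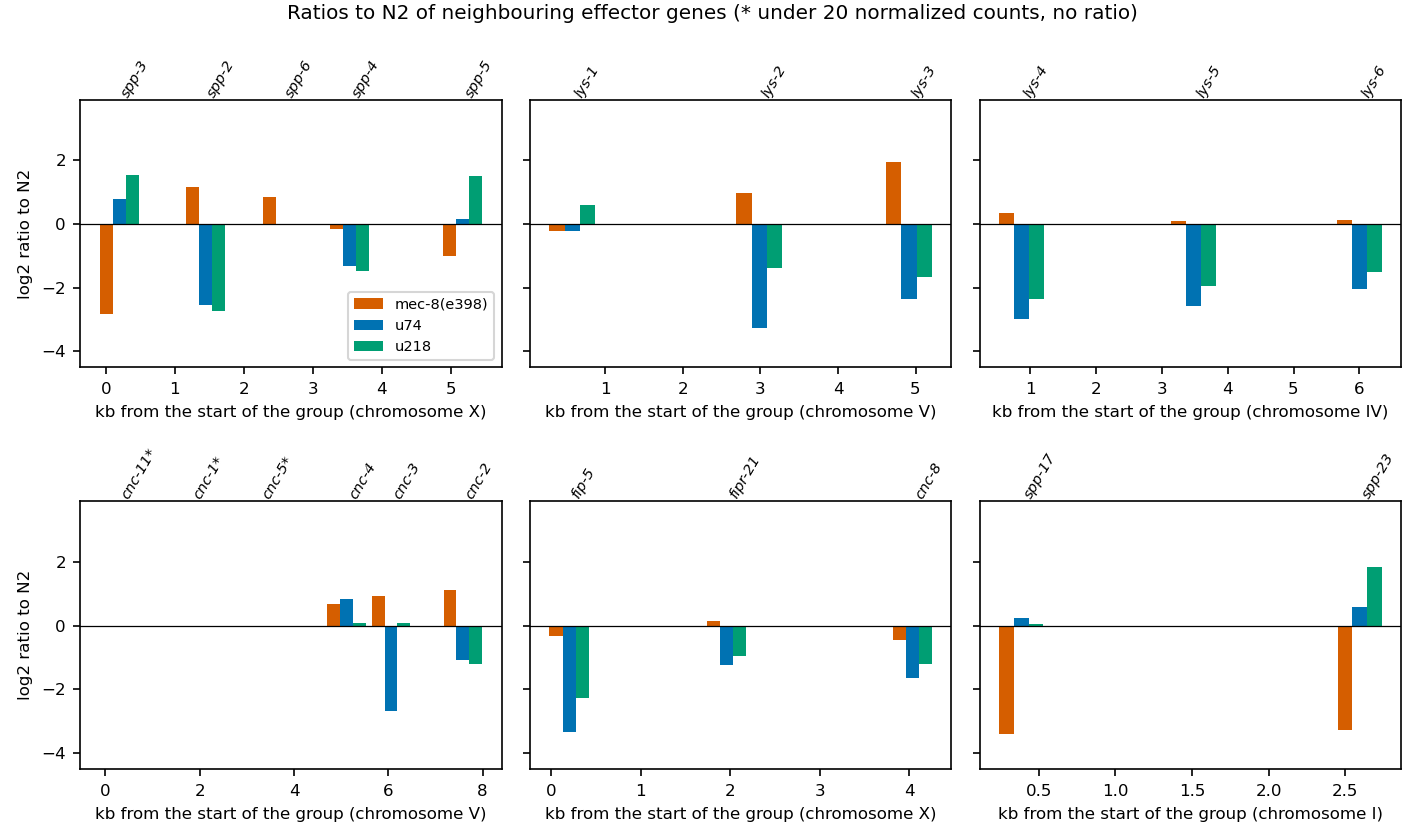
Ratios to N2 of effector genes in 6 groups of neighbours, in e398, u74 and u218. The horizontal axis is the distance in kb from the start of the group, the vertical axis the log2 ratio of averages plus 1, and genes under 20 normalized counts carry a star and no bar; in the spp group of chromosome X the bars of spp-3 and spp-2 point opposite ways in all 3 mutants.

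The genes that signal to these effectors were mostly within 2-fold of N2. Of 33 immune signalling genes, which include the p38 cascade, the DBL-1 pathway and intestinal GATA factors, 2 were higher and 0 lower in e398 (median log2 ratio 0.02), 0 higher and 5 lower in u74 (median -0.25), and 2 higher and 3 lower in u218 (median 0.15). The p38 kinase gene pmk-1, given for its role, averaged 969, 1335 and 2249 normalized counts in e398, u74 and u218, against 1354 in N2. tir-1, an adaptor upstream of the p38 cascade and the most abundant of the list in e398 and N2, averaged 24715, 2159 and 3555 normalized counts in e398, u74 and u218, against 13431 in N2. It was among the 5 lower genes in u74 with elt-7, fshr-1, sma-2 and sma-4, named after their values were seen.

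The epidermal nlp antimicrobial peptide genes, 7 in all, had 2 higher and 1 lower in e398, 0 higher and 2 lower in u74 and 1 higher and 3 lower in u218. The most abundant in N2, nlp-27, averaged 21889.7, 1395 and 905 normalized counts in e398, u74 and u218, against 25334 in N2. nlp-33 averaged 18428, 5321 and 7163 normalized counts in e398, u74 and u218, against 8795 in N2, and stayed within 2-fold of N2 in u74 and u218. Thus nlp-27 was lower in u74 and u218, as were many effectors, and nlp-33 was not.

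Markers of the tissues that make effectors were present in all columns, and markers of stage and germ line moved with genotype. Of 12 intestine markers 2 were higher and 0 lower in e398, 0 higher and 3 lower in u74, and 1 higher and 2 lower in u218. Of 12 epidermis markers these counts were 3 and 0, 0 and 5, and 2 and 4, and of 11 pharynx markers 2 and 0, 0 and 3, and 0 and 3. The summed epidermis level was 2144144, 306320.2 and 628562 normalized counts in e398, u74 and u218, against 1062349 in N2. That of the lys genes was 228600.1, 45068 and 75278, against 177795. Single genes weigh heavily in such sums: in e398, sqt-3 held 1170043, dpy-13 518764 and lys-4 151545. The median log2 ratios of the epidermis markers to N2 were -0.01, -0.75 and -0.46 in e398, u74 and u218. The 2 higher in u218 were dpy-7 and rol-6 (2.03 and 2.01), named after their values were seen. The summed intestine level was 687495, 406024 and 676263, against 507461, and the summed pharynx level 147397, 69109 and 63405, against 107236. The part of tissue amount in the effector ratios was not tested.

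Of 8 adult yolk and cuticle markers, 2 were higher and 2 lower in e398, 6 higher and 1 lower in u74, and 0 higher and 8 lower in u218. Of 10 oocyte markers 9 were lower in e398 (0 higher), 10 higher in u74 and 10 lower in u218; of 12 sperm markers 7 were higher and 2 lower in e398, 0 passed 2-fold in u74, and 12 were lower in u218. Summed levels in e398, u74 and u218 were 362097, 1230155 and 19371 for the yolk and cuticle markers, against 522681 in N2, and 31941, 324110.1 and 18892 for the oocyte markers, against 115990.1 in N2. Those of the sperm markers were 192970.6, 75877 and 1388, against 66071 in N2. Sperm markers differed between u218 libraries, with medians of 9.06, 17.6 and 172 in libraries 1, 2 and 3, and the 1 sperm marker recovered in e398, spe-9, held 1526, 296 and 1114 in its libraries. None of the markers was at 0 in any column. Whether the animals of the groups differed in age or germ line, and what part this had in the effector ratios, was not tested.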

How the data were processed

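The members and lists were chosen with earlier results of these data known. Per the labels' protocols, RNA was prepared with a NEBNext polyA kit. HTSeq, bedtools, DESeq and DESeq2 were used per the submitters' processing notes, which carry no versions; aligner, build, annotation and strandedness: not given in the sources used here. The deposited signal is the authors' average of normalized counts per gene over the libraries of each genotype, as read from the table's name and its repeated steps. Symbols and positions come from the WBcel235 annotation, release 115, to which all 46926 identifiers matched.

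Ratios are log2((average + 1)/(average + 1)) among genes at 20 or more normalized counts in either column, called at 2-fold and not tested. Each step of the low values is the weight of 1 read in 1 library; values with exactly 1 whole-read solution (98.7% of e398, 99.9% of u74, 99.7% of u218 and 99.95% of N2 values in range) gave reads per library. A value moved off its place also had a solution in 2.06%, 6.89%, 3.98% and 0.126% of cases. limma 3.58.1 (R 4.3.3; trend, two-sided) was fitted to log2(normalized count + 1) of all genes with every library resolved and a mean of at least 5, and was tested on simulated data. Its p-values measure the spread between these samples, which may be technical. For groups at 0, folds are bounds against 3 reads over the group, which cover counting error only.

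Genes named are the 2 most abundant of each family, the 6 highest and 6 lowest ratios to N2 and 3 each between mutants at 50 or more normalized counts, those 2-fold one way in all mutants, and those limma called; others are marked. Alternatives were pseudocounts of 0.5 and 10, no minimum or 100, recentring, TMM factors, limma voom, limma minima of 2 and 10, 3 N2 libraries of nearest size factor, and each library left out. Leaving mutant libraries out of the ratios to N2 was added after e398 library 2 and u218 library 3 were seen to stand apart. No sequences were analysed here.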

Additional observations from a re-analysis of the deposited data

Results flagged for a closer look

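Dixon's gap test at the 95% level was applied to the 10 effectors whose 6 N2 libraries were recovered with enough reads. In 6 of them the highest N2 library stood far from the other 5. The test's rate of about 1 group in 20 flagged by chance assumes normally distributed values. Here the values are low counts, and 1 read weighs more in libraries of low size factor. The 6 flags therefore cannot be set against that rate, and no excess of outlying libraries is claimed. The highest N2 library was not the same in every gene. Library 5 held 14.3 normalized counts of ilys-6 and 14.3 of spp-30, and library 3 held 6.93 of spp-9 and 8.82 of cnc-11. In library 6 there were 8.496 of spp-29 and 33.98 of fipr-23. These are genes with N2 averages under 10, and the values rest on few reads.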

How the results depend on the processing

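No paired analysis was possible because the deposited columns are averages and the recovered libraries carry no replicate numbers. Of the counts of effectors past 2-fold, e398 against N2 gave 28 in place of 43 with a minimum of 100 normalized counts in either column, and u218 against u74 gave 38 in place of 23 with no minimum; split by direction, e398 against N2 gave 11 higher and 17 lower in place of 17 and 26 with that minimum, and with no minimum u74 against N2 gave 14 higher in place of 7 and u218 against u74 18 lower in place of 7. The remaining counts of averages moved by at most 1.5 times under the pseudocounts, minima and scalings tried. limma called 4 of 24 in place of 7 of 34 effectors in u218 against u74 with a minimum mean of 10. With each library left out, limma called 10 to 22 effectors in u74 against e398 (14 with all), 5 to 22 in u218 against e398 (13) and 2 to 15 in u218 against u74 (7), and 0 throughout against N2. The calls over all genes moved in these runs too, as given above. Counts past 2-fold of N2 among recovered effectors were 30 to 41 in e398 (35 with all), 27 to 30 in u74 (31) and 30 to 31 in u218 (32). Without e398 library 2 the e398 ratio to N2 of fipr-23 was -0.50 in place of 1.27, and that of abf-4 -1.76 in place of 1.79; the cause was not tested. Averages without recovered reads, among them all of the abundant lysozymes and caenopores, have no error, and N2 values of 10 or more could not be tested.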
